A study of Capra hircus with 3 samples.

Results

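The genes HAMP, TF, TFRC, SLC40A1 and BMP6, which set how liver handles iron were followed across liver cell types and 3 feeding groups of goats. They were taken by symbol and are 5 of the 27271 genes in the count matrices. The identifiers are ENSCHIG00000026218 for HAMP, ENSCHIG00000021497 for TF, ENSCHIG00000027016 for TFRC, ENSCHIG00000019342 for SLC40A1 and ENSCHIG00000026550 for BMP6. No genome build is given in the sources used here, so no coordinates are printed.

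HAMP encodes hepcidin, a peptide hormone made by hepatocytes that lowers the amount of iron released into blood. Hepcidin binds ferroportin, the product of SLC40A1 and the iron exporter of macrophages, hepatocytes and gut cells, and causes its breakdown. BMP6, a ligand made by liver endothelial cells, acts on receptors of the hepatocyte surface, and SMAD proteins then raise HAMP transcription together with other BMP target genes such as ID1, SMAD6 and SMAD7. Transferrin (TF) is the plasma iron carrier secreted by hepatocytes, and the transferrin receptor (TFRC) takes loaded transferrin into cells. TFRC transcripts are stabilised by iron regulatory proteins when iron in the cell is low.

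Liver cells were profiled by droplet RNA sequencing from female goats aged 3 to 4 years in groups fed 2 diets. Con goats were healthy and received the LRDS diet. NASH goats had non-alcoholic steatohepatitis and received the HRDS diet, abbreviations that the labels do not spell out, and NASH-T goats formed a steatohepatitis tolerance group on the same HRDS diet. The livers of 5 goats per group were digested with 0.25% trypsin and pooled, so each group is 1 library and no variation between goats can be seen. No test was possible, and diet, pool and handling cannot be told apart.

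Triplets are in the order Con, NASH, NASH-T. The filtered libraries held 7200, 8389 and 8914 cells with medians of 2392.5, 2472 and 2127.5 UMIs (unique molecular identifiers, each standing for 1 captured transcript). Libraries shared 20 to 23 cell barcodes in pairs. Of 25 clusters, those named from markers formed 8 classes with at least 50 cells in every library, among them hepatocyte-like (2858, 4067 and 3119 cells), macrophage-like (1375, 1285 and 1484), endothelial-like (374, 551 and 1029), stellate or fibroblast-like (187, 360 and 307) and T cell-like (1241, 1223 and 1468). The 13 detected hepatocyte markers summed to 20107, 21609 and 24626 CPM in hepatocyte-like cells and to between 2236 and 5357 CPM in the other 7 classes. The 13 endothelial markers summed to 9998, 10448 and 10549 CPM in endothelial-like cells, with 1 or 2 of them at 0, and the 12 macrophage markers to 8422, 7439 and 8345 CPM in macrophage-like cells. Red cells had been lysed, and erythroid markers did not exceed 4.38 CPM in any of the 8 classes and libraries. CPM is a gene's UMIs scaled by all UMIs of its class, so that every class and library sums to the same total. Brackets hold 95% intervals of counting error alone.

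A gene was counted as higher or lower between libraries when its ratio was at least 1.5 in either direction, its interval excluded 1 and it had at least 20 UMIs over both libraries. HAMP met this rule in hepatocyte-like cells in NASH and in NASH-T against Con, and TF, TFRC and SLC40A1 met it in none of the 3 comparisons there. BMP6 had too few UMIs to be measured in hepatocyte-like cells in the comparisons with NASH-T. Over all genes measured in hepatocyte-like cells, 5.25% were higher and 11.0% lower in NASH than in Con. The shares were 4.66% and 8.01% for NASH-T over Con and 7.87% and 4.96% for NASH-T over NASH. The median of all genes lay at a log2 ratio of -0.12 for NASH over Con and -0.10 for NASH-T over Con, and scaling by the median of ratios, which removes that shift, is given where it matters. The plot of CPM by class places the 5 genes in the tissue.

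**Figure D1:**
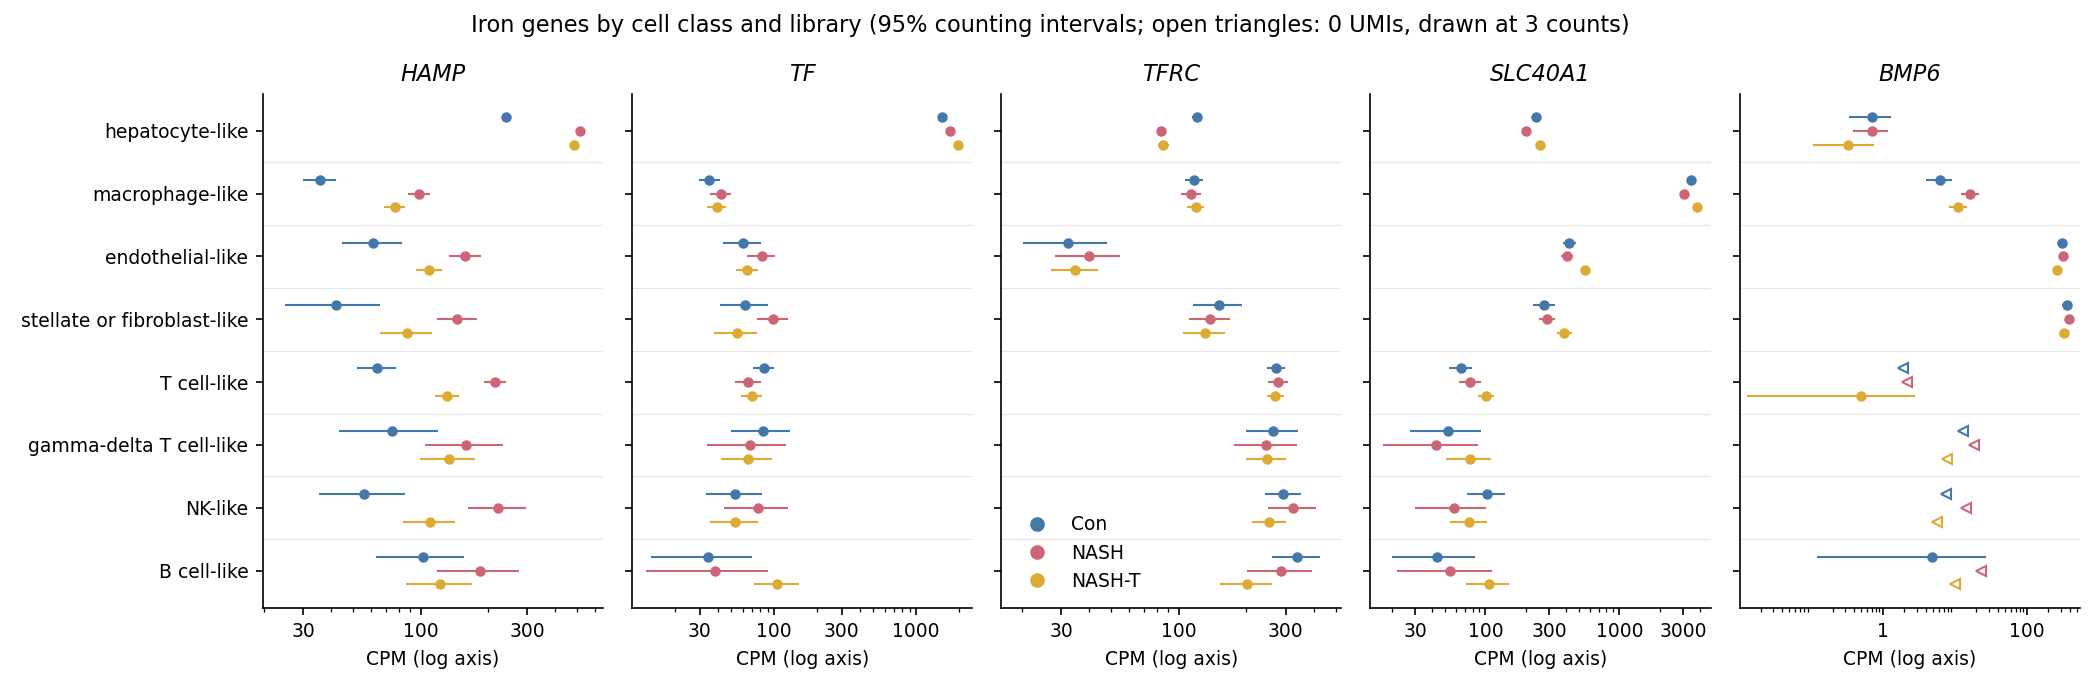
CPM of the 5 iron genes (log axes, 1 panel per gene) in 8 cell classes, with points for Con, NASH and NASH-T and 95% counting intervals as bars; open triangles stand for 0 UMIs and are drawn at 3 counts. HAMP and TF were highest in hepatocyte-like cells, SLC40A1 in macrophage-like cells (3036 to 3781 CPM), TFRC in the 4 lymphoid classes, and BMP6 in stellate or fibroblast-like and endothelial-like cells.

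HAMP, the hepcidin gene, had 3451, 10217 and 7335 UMIs in hepatocyte-like cells, or 241 (233 to 249), 512 (502 to 522) and 482 (471 to 493) CPM. The level in Con was thus the lowest and both HRDS pools were well above it, with intervals that did not overlap. NASH was higher than Con by 2.12-fold (2.04 to 2.21) and NASH-T by 2.00-fold (1.92 to 2.08), and the ratio of NASH-T to NASH was 0.941 (0.913 to 0.970). Scaled by the median of ratios, the first 2 values were 2.32-fold and 2.15-fold.

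Within the class, HAMP was unevenly spread over cells. In Con, 64.9% of hepatocyte-like cells had no HAMP UMI, against 38.6% in NASH and 44.9% in NASH-T. The median cell held 0, 1 and 1 UMIs, and the richest cell 40, 94 and 54. Cells with 5 or more HAMP UMIs made up 8.29%, 19.4% and 17.9%. The richest 10% of cells held 67.1% of the HAMP UMIs in Con, 45.0% in NASH and 49.4% in NASH-T. These shares depend on depth and on the HAMP level itself, which was lowest in Con. A difference in evenness apart from level was not tested. The median depths of the class were 4210.5, 3870 and 4048 UMIs per cell. With every cell thinned to 1000 UMIs, which kept 2684, 3862 and 2921 cells, a HAMP UMI was found in 16.0% (14.6 to 17.4), 33.3% (31.8 to 34.8) and 31.6% (29.9 to 33.3). Unthinned, 35.1%, 61.4% and 55.1% of hepatocyte-like cells had one.

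HAMP UMIs also appeared in every other class, lymphoid cells included, although hepatocytes are the main known source of hepcidin. T cell-like cells held 64.0 (52.1 to 77.9), 215 (192 to 241) and 132 (116 to 149) CPM. A HAMP UMI was present in 7.41%, 20.4% and 15.2% of them at medians of 1164, 1013 and 1222.5 UMIs, or in 4.66%, 15.9% and 10.5% after thinning. That thinned share in NASH T cell-like cells was close to the 16.0% of Con hepatocyte-like cells. Across the 7 classes other than hepatocyte-like, HAMP per cell ran from 0.0806 to 0.167 UMIs in Con. It ran from 0.242 to 0.313 in NASH and from 0.176 to 0.231 in NASH-T. The median depths of these classes ran from 1013 to 2746 UMIs. Hepatocyte-like cells held 1.21, 2.51 and 2.35 per cell. Whether the HAMP level of the 7 other classes was expression was not tested, and it was taken as background in what follows. It moved in the same direction as the hepatocyte level: the T cell-like CPM was higher by 3.36-fold (2.67 to 4.26) in NASH and by 2.06-fold (1.63 to 2.62) in NASH-T than in Con. The hepatocyte-like CPM stood 3.77-fold (3.09 to 4.64), 2.38-fold (2.12 to 2.68) and 3.66-fold (3.23 to 4.15) above the T cell-like CPM. With the T cell-like CPM of the same library subtracted, HAMP in hepatocyte-like cells was still higher by 1.68-fold in NASH and 1.98-fold in NASH-T than in Con, but the ratio of NASH-T to NASH turned from 0.941 to 1.18. With T cell-like UMIs per cell subtracted instead, the 3 ratios were 2.06, 1.98 and 0.963. Over the whole hepatocyte-like class, the order of the 2 HRDS pools therefore depended on how background was treated. The position of Con below both did not.

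The other classes held far more HAMP relative to TF than the hepatocyte-like cells did. For each TF UMI there were 0.158 (0.152 to 0.164), 0.295 (0.288 to 0.301) and 0.245 (0.239 to 0.251) HAMP UMIs in hepatocyte-like cells. In T cell-like cells there were 0.758 (0.578 to 0.990), 3.29 (2.59 to 4.21) and 1.89 (1.53 to 2.34). Macrophage-like cells gave 1.01, 2.36 and 1.95, and the 7 classes together ran from 0.667 to 3.00 in Con, 1.49 to 4.80 in NASH and 1.16 to 2.07 in NASH-T. Both transcripts are made by hepatocytes, but their counts did not stand in 1 ratio in hepatocyte-like cells and in the other classes. Why they differ was not tested.

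**Figure D2:**
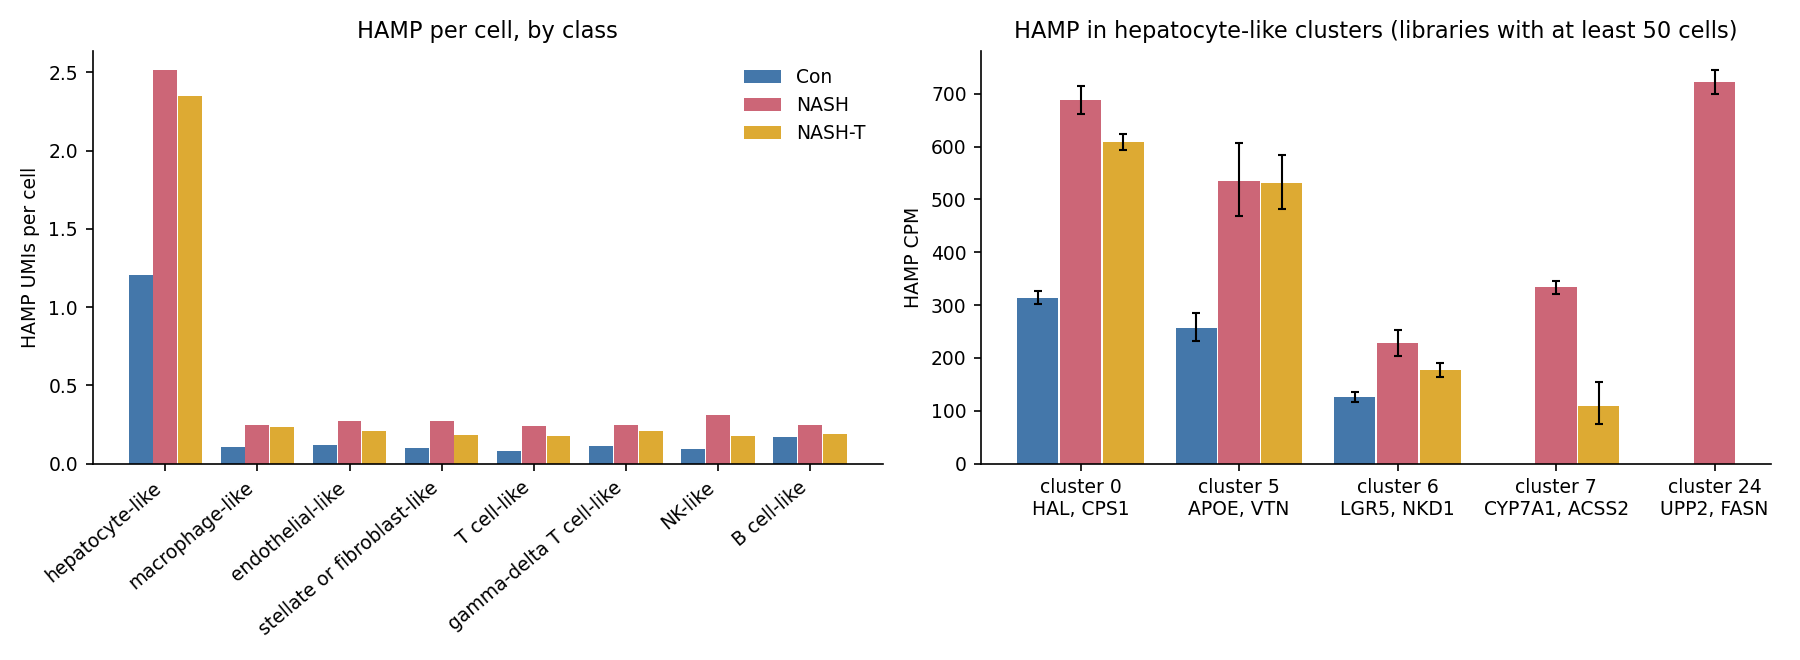
Left, HAMP UMIs per cell in 8 classes for Con, NASH and NASH-T; right, HAMP CPM with 95% counting intervals in the 5 hepatocyte-like clusters, for libraries with at least 50 cells of the cluster, with 2 leading genes under each. Hepatocyte-like cells held 1.21, 2.51 and 2.35 HAMP UMIs per cell against at most 0.313 elsewhere, and HAMP was higher in cluster 0 than in cluster 6 in all 3 libraries.

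HAMP also differed between hepatocyte-like clusters. The leading genes of cluster 0 included HAL, CPS1 and GOT1, genes of amino acid and urea metabolism, and cluster 6 was led by LGR5 and NKD1, targets of Wnt signalling. The clusters were not clean zones of the liver lobule, since a HAL UMI was found in 20.5%, 21.8% and 24.97% of cluster 0 cells and an LGR5 UMI in 17.8%, 23.1% and 25.9% of the same cells. In cluster 6 LGR5 was found in 74.2%, 70.8% and 74.4%. HAMP stood at 314, 688 and 609 CPM in cluster 0 and at 126, 227 and 177 CPM in cluster 6. The first was higher within every library, by 2.49-fold (2.29 to 2.73) in Con, 3.02-fold (2.70 to 3.39) in NASH and 3.44-fold (3.18 to 3.72) in NASH-T. No background was subtracted from these values. TF, TFRC and SLC40A1 differed less between these clusters, with ratios of 1.09 to 1.19 for TF, 0.935 to 0.967 for TFRC and 1.11 to 1.43 for SLC40A1. Cluster 5, a group of shallow cells led by APOE and VTN, had 257, 535 and 531 CPM of HAMP. Because the clusters were drawn from the expression of these cells, their contrasts are descriptions.

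The 3 libraries filled different hepatocyte-like clusters. Clusters 7 and 24 held 41.1% and 26.9% of NASH hepatocyte-like cells but 2.34% and 1.03% of those of NASH-T and 0.735% and 0.175% of those of Con. Cluster 24, led by UPP2 and by FASN, the fatty acid synthase gene, had 722 (700 to 744) CPM of HAMP in NASH, and its 32 NASH-T cells had 713 (580 to 867) CPM. Cluster 7, led by CYP7A1, the rate-limiting enzyme of bile acid synthesis, had 334 (321 to 346) CPM in NASH. Its 73 NASH-T cells had 109 CPM from 32 UMIs, a ratio of 0.328 (0.224 to 0.464) to NASH. The HRDS pools thus differed by more than 1.5-fold within this cluster. The NASH-T value lay below the 132 CPM of T cell-like cells in that library, taken above as background. In the clusters that every library filled (0, 5 and 6), HAMP in NASH over Con was 2.19-fold (2.07 to 2.32), 2.08-fold (1.76 to 2.45) and 1.81-fold (1.58 to 2.06). With no background subtracted, its CPM was thus higher in NASH within each. In cluster 6 the 126, 227 and 177 CPM stood beside 64.0, 215 and 132 CPM in T cell-like cells. The cluster 6 interval in NASH, 204 to 253 CPM, included the T cell-like level, and those of Con and NASH-T lay above theirs. The ratio to Con in cluster 6 therefore depends on how background is treated, and no subtraction was made by cluster. In NASH-T over Con it was 1.94-fold (1.85 to 2.03), 2.06-fold (1.79 to 2.38) and 1.41-fold (1.26 to 1.57), and it was smallest in cluster 6.

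The genes that carry the BMP signal to HAMP in hepatocytes were followed by list. The list of hepcidin sensing receptors had 11 measured members, of which 0 were higher and 0 lower in NASH than in Con (median log2 ratio -0.01). In NASH-T over Con, 0 were higher and 1 lower (median -0.03). In a list of 11 genes the shares over all genes, 5.25% and 11.0% in NASH and 4.66% and 8.01% in NASH-T, come to at most about 1 gene either way, so these counts are near the background. BMPR2 and IL6ST, the members with the most UMIs, stood at 557, 553 and 642 CPM and at 296, 329 and 289.0 CPM. The lower member was IL6R, the interleukin-6 receptor, at 71.3, 48.3 and 46.8 CPM, with a ratio of 0.657 (0.596 to 0.723) in NASH-T over Con. Its ratio in NASH, 0.678 (0.620 to 0.741), lay just short of the 1.5-fold rule. TFR2 and HJV, which sense iron with HFE and act as BMP coreceptor, stood at 133, 107 and 109.9 CPM and at 11.2, 11.3 and 13.1 CPM. These 2 were named for their role after their values were seen. Of 9 measured SMAD and STAT3 signalling genes, 0 were higher or lower in either comparison with Con; STAT3 stood at 472, 408 and 466 CPM. Of 8 measured hepcidin suppressors, 0 were higher or lower in any of the 3 comparisons. They include TMPRSS6, the protease that cleaves the coreceptor and so holds HAMP down, at 50.1, 43.8 and 45.9 CPM.

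The BMP target genes split. Of 7 measured members, HAMP and ID3 were higher in NASH than in Con and 0 were lower (median log2 ratio 0.05). In NASH-T over Con, HAMP, ID1 and ID3 were higher and SMAD6 was lower (median 0.29). HAMP is a member of this list, so its own rise, given above, is part of these counts and medians. Over all genes 5.25% were higher and 11.0% lower in NASH than in Con, and 4.66% and 8.01% in NASH-T. ID1 and ID3, inhibitors of DNA binding, are early targets of BMP signalling. ID3 stood at 13.4, 22.4 and 23.8 CPM, higher by 1.67-fold (1.41 to 1.99) in NASH and 1.77-fold (1.48 to 2.12) in NASH-T. ID1 stood at 19.7, 20.6 and 36.5 CPM, with 1.05-fold (0.897 to 1.22) in NASH and 1.85-fold (1.60 to 2.14) in NASH-T. T cell-like cells held 14.1, 13.1 and 17.7 CPM of ID3, so the Con level of hepatocyte-like cells was no higher than that of T cell-like cells. The inhibitory SMADs went the other way. SMAD6 stood at 38.2, 29.7 and 24.6 CPM, with a ratio of 0.643 (0.562 to 0.735) in NASH-T over Con, and SMAD7 at 77.9, 52.0 and 56.5 CPM, short of the rule. ATOH8, another BMP target of the list, was also lowest in NASH-T, at 42.8, 44.2 and 29.6 CPM. BAMBI stood at 20.5, 19.8 and 25.0 CPM, and neither gene met the rule against Con. ID1, ID3 and HJV had lower CPM in cluster 6 than in cluster 0 in every library, and SMAD6 had higher CPM there. The counting intervals of the 2 clusters overlapped for ID1 and ID3 in Con, for HJV in NASH and for SMAD6 in every library. ID3 stood at 14.5, 23.2 and 29.0 CPM in cluster 0 and at 10.02, 6.57 and 9.94 CPM in cluster 6, where it had 51, 10 and 40 UMIs. ID1 stood at 19.0, 25.2 and 43.2 CPM in cluster 0 and at 13.8, 7.89 and 19.9 CPM in cluster 6, from 70, 12 and 80 UMIs. SMAD6 stood at 34.5, 28.3 and 21.9 CPM in cluster 0 and at 42.7, 36.1 and 29.1 CPM in cluster 6. In cluster 6 neither ID gene was thus higher in NASH than in Con, and ID3 was at its Con level in NASH-T.

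**Figure D3:**
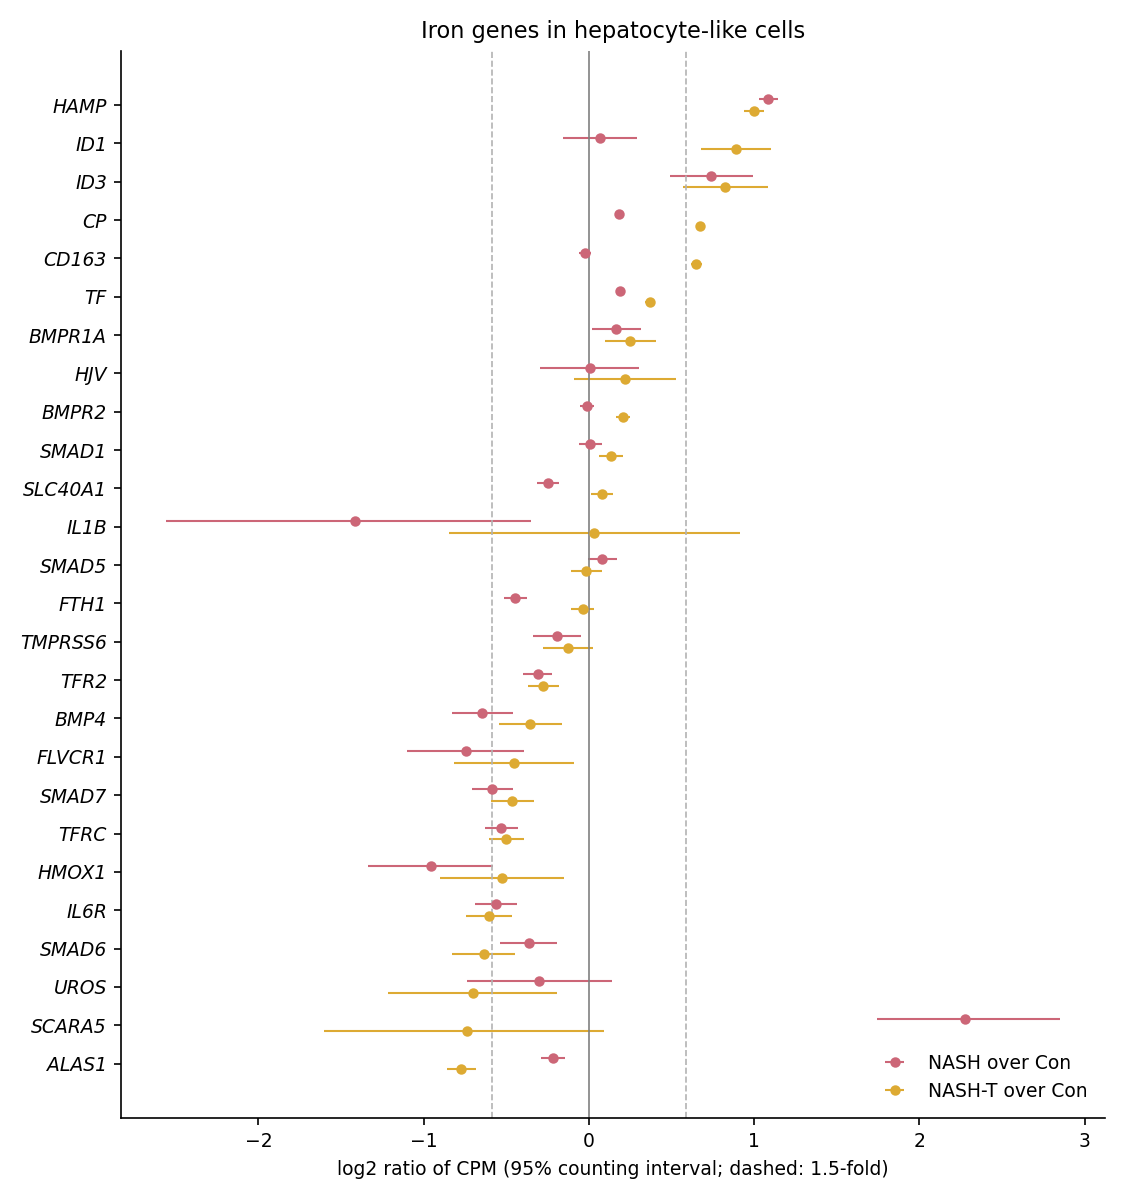
Log2 ratios of CPM in hepatocyte-like cells for NASH over Con and NASH-T over Con, with 95% counting intervals; dashed lines mark 1.5-fold. The genes are those that met the 1.5-fold rule in either comparison, 4 of the 5 chosen iron genes, and 9 others added for their role after their values were seen; HAMP and ID3 lie to the right in both comparisons, and TFRC lies to the left in both at log2 ratios of -0.53 and -0.50.

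Over all 12 iron lists, hepatocyte-like cells had 3 higher and 4 lower of 92 measured genes in NASH over Con (median log2 ratio -0.05), 5 higher and 4 lower of 91 in NASH-T over Con (-0.05), and 5 higher and 3 lower of 91 in NASH-T over NASH (0.03). These shares were under those found over all genes, apart from the higher genes in NASH-T over Con (5.49%). Besides the BMP targets, the higher genes were SCARA5, a ferritin receptor gene, in NASH over Con, and CP and CD163 in NASH-T over Con. The other genes of the lists that were lower in NASH than in Con were BMP4 (ratio 0.639), the interleukin gene IL1B (0.374, from 23 and 12 UMIs), the haem exporter gene FLVCR1 (0.596) and HMOX1 (0.515), the enzyme that opens the haem ring. In NASH-T, 2 of 7 haem synthesis genes were lower than in Con, beside 8.01% of all genes. This is 1 of the 12 lists, over which 4 of 91 genes were lower. ALAS1, the rate-limiting enzyme of the pathway in liver, stood at 194, 167 and 114 CPM with a ratio of 0.586 (0.551 to 0.622). UROS had a ratio of 0.616 (0.430 to 0.876) from 84 UMIs in Con and 55 in NASH-T.

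TF, the transferrin gene, had 21839, 34673 and 29954 UMIs in hepatocyte-like cells, or 1526 (1505 to 1546), 1738 (1720.0 to 1757) and 1968 (1946 to 1991) CPM. The levels were ordered Con, NASH, NASH-T with intervals that did not overlap, but the steps were small. NASH over Con was 1.14-fold (1.12 to 1.16), NASH-T over Con 1.29-fold (1.27 to 1.31) and NASH-T over NASH 1.13-fold (1.11 to 1.15). Summed over clusters 0, 5 and 6, which every library filled, NASH over Con was 1.34-fold and NASH-T over NASH 0.961, so the order of the HRDS pools rested on which clusters were counted. After thinning, 69.0%, 72.6% and 75.3% of hepatocyte-like cells had a TF UMI, against 7.43%, 6.57% and 6.03% of T cell-like cells. TF was read as background in the 7 other classes, where it lay between 34.0 and 105.6 CPM and between 0.0510 and 0.181 UMIs per cell. Hepatocyte-like cells held 93.3%, 92.7% and 96.1% of all TF UMIs. CP, the plasma ferroxidase ceruloplasmin that loads exported iron onto transferrin, went in the same direction, at 1873, 2128 and 2987 CPM, and met the rule in NASH-T over Con with 1.59-fold (1.57 to 1.62).

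TFRC, the receptor that imports transferrin, had 1729, 1670 and 1300 UMIs in hepatocyte-like cells, or 121 (115 to 127), 83.7 (79.8 to 87.8) and 85.4 (80.8 to 90.2) CPM. Con was the highest of the 3, the reverse of HAMP, and NASH and NASH-T overlapped. The ratios to Con were 0.693 (0.648 to 0.742) for NASH and 0.707 (0.658 to 0.760) for NASH-T, and NASH-T over NASH was 1.02 (0.948 to 1.10). Both differences from Con fell just short of 1.5-fold, and with median-of-ratios scaling they were 0.757 and 0.761. In clusters 0, 5 and 6 the ratios were 0.676, 0.714 and 0.699 for NASH over Con, and 0.697, 0.715 and 0.720 for NASH-T over Con. The interval of the first in cluster 5, with 38 NASH UMIs, ran from 0.488 to 1.02 and so included 1. The ratio was thus under 1 in all 3 clusters. FTH1, the ferritin heavy chain that stores iron, stood at 231, 169.7 and 225 CPM. The iron regulatory protein genes ACO1 and IREB2, named for their role after their values were seen, were level at 350.1, 353 and 344 CPM and at 126, 131 and 134 CPM. Of 6 measured genes of that list, 0 were higher or lower in any comparison in hepatocyte-like cells.

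Across classes TFRC was ordered differently from the other iron genes, with the lymphoid classes on top. NK-like cells pooled over libraries held 279.9 CPM, T cell-like 272, B cell-like 262 and gamma-delta T cell-like 251, and each class overlapped its neighbour in the range over libraries. Stellate or fibroblast-like cells followed at 138, clear of these 4, then macrophage-like cells at 117, hepatocyte-like at 94.96 and endothelial-like at 35.5 CPM. Macrophage-like and hepatocyte-like ranges overlapped, at 114 to 119 and 83.7 to 121 CPM. TFRC in T cell-like cells was 271, 278 and 269 CPM and in macrophage-like cells 118, 114 and 119 CPM, with ratios to Con between 0.967 and 1.02 in both. The lower level in the HRDS pools was thus seen in hepatocyte-like cells and not in these 2 classes. Whether the classes differ in this was not tested. In B cell-like cells, with 69, 37 and 59 UMIs, the ratio of NASH-T to Con was 0.60 (0.416 to 0.861).

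SLC40A1, the ferroportin gene, had 13880, 9768 and 16867 UMIs in macrophage-like cells, or 3452 (3395 to 3510), 3036 (2976 to 3097) and 3781 (3724 to 3838) CPM. NASH was lowest and NASH-T highest, with intervals that did not overlap, but no ratio reached 1.5. They were 0.880 (0.857 to 0.903) for NASH over Con, 1.10 (1.07 to 1.12) for NASH-T over Con and 1.25 (1.21 to 1.28) for NASH-T over NASH. Thinned to 1000 UMIs, 82.3%, 81.5% and 86.6% of macrophage-like cells had an SLC40A1 UMI, and 6.30%, 6.73% and 8.42% of T cell-like cells did. In the macrophage-like class 3.44% of all measured genes were higher and 4.66% lower in NASH than in Con, 3.34% and 6.12% in NASH-T than in Con, and 4.16% and 5.34% in NASH-T than in NASH.

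The class average hid a difference between 2 macrophage-like clusters, drawn in the plot of SLC40A1 by cluster. Cluster 10 was led by MSR1 and TIMD4, genes of resident Kupffer cells, and held 1002, 1025 and 1260 cells. Its SLC40A1 level was 3638, 3460.4 and 4094 CPM, with ratios to Con of 0.951 in NASH and 1.13 in NASH-T. Cluster 2 was led by CPM (here the carboxypeptidase M gene) and GPNMB, a gene of lipid-laden and scar-associated macrophages, and held 373, 260 and 224 cells. There SLC40A1 stood at 2914, 1087 and 1837 CPM from 3021, 626 and 1140 UMIs. NASH was at a ratio of 0.373 (0.342 to 0.407) to Con and NASH-T at 0.630 (0.588 to 0.675), and NASH-T was 1.69-fold (1.53 to 1.87) above NASH. Cluster 10 exceeded cluster 2 by 1.25-fold (1.20 to 1.30) in Con, 3.18-fold (2.93 to 3.46) in NASH and 2.23-fold (2.10 to 2.37) in NASH-T. Other genes moved with SLC40A1 inside cluster 2. GPNMB stood at 588, 62.5 and 496 CPM, the haemoglobin scavenger receptor gene CD163 at 1096, 146 and 239 CPM, FTH1 at 1205, 479 and 1104 CPM, and the summed macrophage markers at 6547, 4136 and 4742 CPM. The gene TIMD4 was at 293, 354 and 308 CPM, and median depth was 2604, 1940.0 and 2500.0 UMIs. A GPNMB UMI was found in 32.2%, 6.15% and 25.0% of its cells. With doublets kept, or with cells held to 500 genes and 1000 UMIs or more, the GPNMB cells formed a cluster apart from one led by TBC1D9, PARM1 and PLBD1. In NASH the first held 62 and 112 cells under these settings and the second 298 and 188. Cluster 2 therefore held cells of different make-up in the 3 libraries, and the part of this in the SLC40A1 difference was not tested.

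**Figure D4:**
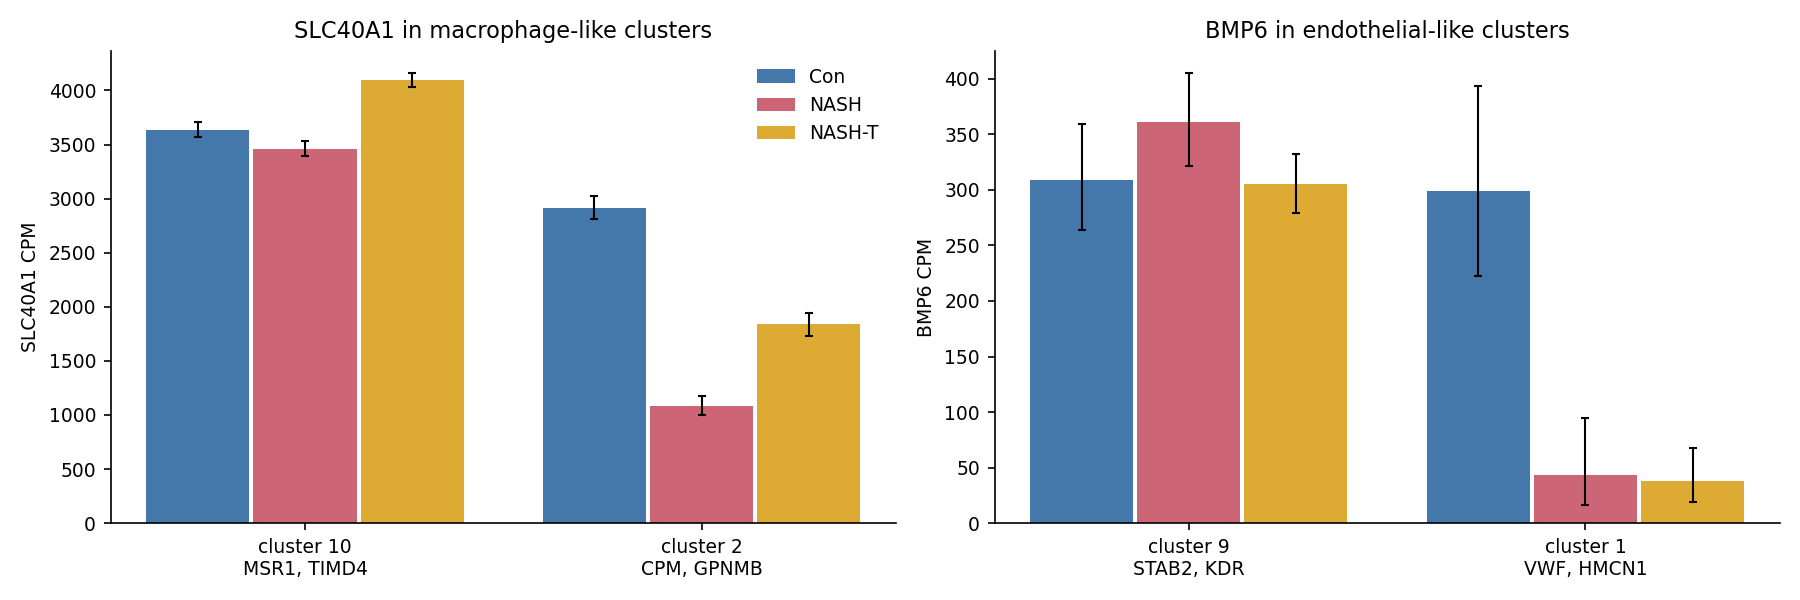
Left, SLC40A1 CPM in macrophage-like clusters 10 and 2; right, BMP6 CPM in endothelial-like clusters 9 and 1, with bars for Con, NASH and NASH-T and 95% counting intervals. SLC40A1 in cluster 2 was at 2914 CPM in Con and 1087 in NASH, cluster 10 lay between 3460.4 and 4094, and the high BMP6 bar of Con in cluster 1 rests on 51 UMIs in 7 cells.

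The iron lists in macrophage-like cells had 3 higher and 2 lower of 72 measured genes in NASH over Con, 5 and 4 of 74 in NASH-T over Con, and 2 and 0 of 71 in NASH-T over NASH. In shares these were 4.17% and 2.78%, 6.76% and 5.41%, and 2.82% and 0%. Over all measured genes they were 3.44% and 4.66%, 3.34% and 6.12%, and 4.16% and 5.34%. HAMP was among the higher list genes in both comparisons with Con, at the level taken as background. CD163, the receptor through which macrophages take up haemoglobin, was lower at 1034, 534 and 646 CPM, with ratios of 0.517 (0.488 to 0.547) in NASH and 0.624 (0.595 to 0.655) in NASH-T. FTH1 was lower in NASH, at 692, 458 and 597 CPM and a ratio of 0.661 (0.621 to 0.705). By cluster it stood at 514, 453 and 515 CPM in cluster 10 and, as given above, at 1205, 479 and 1104 CPM in cluster 2. HMOX1, which frees iron from haem, stood at 465, 342 and 432 CPM, short of the rule. The BMP targets ID1 and ID3 were higher in NASH-T than in Con here too, by 3.42-fold (2.04 to 6.0; 19 and 72 UMIs) and 1.75-fold (1.504 to 2.05). Of the metal importer genes, SLC39A14 differed between NASH and Con by 1.52-fold (1.19 to 1.94), and SLC39A8 between NASH-T and Con by 1.70-fold (1.04 to 2.85), Con being the lower in both. ABCG2, a transporter of haem precursors, was higher in NASH-T than in NASH by 1.59-fold (1.40 to 1.81). EPAS1 (ratio 0.406) and FECH (0.658), the last enzyme of haem synthesis, were among those lower in NASH-T than in Con.

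Outside macrophage-like cells SLC40A1 was lower but above background. Endothelial-like cells held 424, 408 and 555 CPM, with NASH-T over Con at 1.31-fold (1.15 to 1.49) and NASH-T over NASH at 1.36-fold (1.21 to 1.53). Hepatocyte-like cells held 240 (232 to 248), 202 (195 to 208) and 253 (245 to 261) CPM. Stellate or fibroblast-like cells held 274, 288 and 388 CPM. The order by pooled level was macrophage-like 3463, endothelial-like 491, stellate or fibroblast-like 322 and hepatocyte-like 229 CPM, and none of these 4 overlapped its neighbour over libraries. T cell-like, NK-like, B cell-like and gamma-delta T cell-like cells followed at 62.1 to 83.2 CPM and overlapped one another. In each of the 4 highest classes NASH-T had the highest level. The T cell-like background went the same way, at 65.3, 77.1 and 102 CPM, which is a 1.55-fold (1.22 to 1.99) difference between NASH-T and Con. With T cell-like CPM subtracted, NASH-T over Con was 1.09 in macrophage-like, 1.26 in endothelial-like and 0.870 in hepatocyte-like cells, in place of 1.10, 1.31 and 1.06, so the direction turned in hepatocyte-like cells.

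BMP6, the ligand that induces hepcidin, had 220, 301 and 530 UMIs in endothelial-like cells, or 307 (267 to 350), 315 (281 to 353) and 266 (244 to 290) CPM. The intervals of all 3 libraries overlapped. The ratios were 1.03 (0.862 to 1.23) for NASH over Con, 0.869 (0.741 to 1.02) for NASH-T over Con and 0.844 (0.731 to 0.976) for NASH-T over NASH. With classes set per cell from markers, the last 2 ratios turned to 1.17 and 1.09. With each library clustered on its own, NASH-T over NASH was 5.72 from 74 NASH cells, and Con gave no endothelial-like cells. Thinned to 1000 UMIs, 18.4%, 21.8% and 18.5% of endothelial-like cells had a BMP6 UMI. BMP2, the other endothelial ligand of this pathway, stood at 57.1, 59.7 and 68.3 CPM and did not meet the rule. Over all genes measured in endothelial-like cells, 3.93% were higher and 6.41% lower in NASH than in Con, 4.54% and 5.62% in NASH-T than in Con, and 4.88% and 4.04% in NASH-T than in NASH.

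In T cell-like, NK-like, gamma-delta T cell-like and B cell-like cells BMP6 was at or near 0, unlike HAMP. Plasma cell-like cells, left out of the classes for their 49 NASH cells, did hold BMP6. They had 13 UMIs (64.1 CPM) in Con and 67 (197 CPM) in NASH-T, a ratio of 3.07 (1.68 to 6.06). T cell-like cells held 0, 0 and 1 UMIs, and a count of 0 allows up to 1.92 CPM in Con and 2.18 CPM in NASH. NK-like and gamma-delta T cell-like cells held 0 in each library, and B cell-like cells 1, 0 and 0. Stellate or fibroblast-like cells, which store vitamin A or make matrix, held the highest level at 362, 387 and 331 CPM, above endothelial-like cells in pooled level (360.2 and 287 CPM) and without overlap over libraries. Endothelial-like cluster 9 alone, at 309, 361 and 305 CPM, was lower in each library but overlapped the range of these cells. Stellate or fibroblast-like ratios to Con were 1.07 (0.874 to 1.31) in NASH and 0.914 (0.740 to 1.13) in NASH-T. Macrophage-like cells held a trace, 25, 53 and 50 UMIs or 6.22, 16.5 and 11.2 CPM, higher by 2.65-fold (1.62 to 4.45) in NASH and 1.80-fold (1.09 to 3.04) in NASH-T. The 13 endothelial markers there summed to 651, 780.1 and 847 CPM, and their part in the BMP6 trace was not tested. Hepatocyte-like cells held 10, 14 and 5 BMP6 UMIs, or 0.699, 0.702 and 0.329 CPM.

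Within the endothelial-like class, cluster 9 was led by STAB2, CLEC9A and KDR and is of sinusoidal type, and cluster 1 was led by VWF and HMCN1, as in larger vessels. BMP6 in cluster 9 was 309, 361 and 305 CPM. In cluster 1 it was 299, 43.6 and 38.0 CPM from 51, 6 and 11 UMIs, with ratios to Con of 0.146 (0.0511 to 0.339) and 0.127 (0.0597 to 0.247). These UMIs came from 7, 5 and 7 cells of 96, 79 and 136, so the share of cells with BMP6 was alike and a few Con cells were rich. The intervals treat UMIs as independent and are too narrow for this case. SLC40A1 was higher in cluster 9 than in cluster 1 in every library, by 2.25-fold (1.59 to 3.26), 2.68-fold (1.76 to 4.29) and 1.90-fold (1.53 to 2.38). A further 71, 144 and 23 BMP6 UMIs, or 13.7%, 18.0% and 2.54% of all, lay in a cluster with hepatocyte and endothelial markers together that was left out of every class.

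Over the iron lists in endothelial-like cells, 2 of 56 measured genes were higher and 4 lower in NASH than in Con. The counts were 3 and 2 of 64 in NASH-T over Con, and 4 and 0 of 65 in NASH-T over NASH. In shares the 3 comparisons gave 3.57% and 7.14%, 4.69% and 3.125%, and 6.15% and 0%. Over all measured genes they were 3.93% and 6.41%, 4.54% and 5.62%, and 4.88% and 4.04%. HAMP, at the level taken as background, was among the higher genes in both comparisons with Con. FTH1 was lower in NASH, at 364, 211 and 405 CPM, with a ratio of 0.579 (0.479 to 0.699) to Con, and NASH-T was 1.92-fold (1.65 to 2.26) above NASH. In T cell-like cells FTH1 stood at 211, 191 and 238 CPM, also lowest in NASH. ALAD (25, 17 and 69 UMIs), BLVRB (14, 7 and 36) and HMOX1 (14, 8 and 41), genes of haem synthesis and breakdown, were also higher in NASH-T than in NASH, by 1.95-fold (1.13 to 3.53), 2.47-fold (1.08 to 6.56) and 2.46-fold (1.14 to 6.07). ALAD stood at 34.8, 17.8 and 34.7 CPM, BLVRB at 19.5, 7.34 and 18.1, and HMOX1 at 19.5, 8.39 and 20.6. NASH was thus the lowest library for each of them, and NASH-T lay near Con. ALAS1 was lower than in Con in both HRDS pools, with ratios of 0.415 (0.211 to 0.790) and 0.435 (0.258 to 0.738). The BMP targets ID3 and BAMBI were higher by 1.52-fold (1.19 to 1.96) in NASH-T and by 1.504-fold (1.0006 to 2.30) in NASH.

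The genes whose log2(CPM + 1) ran most like that of each iron gene were sought over 24 points, the 8 classes in 3 libraries, among 9446 genes. The points share libraries and the classes differ in depth, so the correlations are descriptions. For HAMP they were APOH, TTR and MGST1, with Pearson r of 0.898, 0.895 and 0.895. For TF they were PCK1, HPX and APOB (0.987, 0.983 and 0.983). TFRC ran most like CCDC91, ZDHHC19 and TNRC6B (0.926, 0.924 and 0.904), SLC40A1 like QKI, APLP2 and ABCC3 (0.961, 0.950 and 0.944), and BMP6 like RHOJ, MID1 and TMEM26 (0.970, 0.969 and 0.966).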

How the data were processed

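The deposited values are UMI counts per gene and cell barcode. Per the submitters' processing notes they were made with Cell Ranger 7.0.0. No genome build or annotation is named in the labels or file headers. The matrices held 7485, 8731 and 9375 barcodes and 25506238, 31195014 and 29572158 UMIs for Con, NASH and NASH-T. Of 27271 genes, 17313 carry a symbol.

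A barcode needed 200 genes, 500 UMIs and no more than 20% mitochondrial UMIs to stay (1, 0 and 2 were removed). Scrublet (scanpy 1.11.5, expected rate 0.06) removed 284, 342 and 459 doublets, or 3.79%, 3.92% and 4.90%. Counts scaled to 10000 per cell, 2000 variable genes, 30 components, 15 neighbours and Leiden clustering (resolution 0.8) gave 25 clusters, clustered jointly without batch correction. Clusters were named by the highest mean log2 fold of 19 marker lists (147 of 181 names present), with at least 3 markers at 2-fold except for hepatocytes. Ties within 0.2 stayed unnamed, and clusters with hepatocyte markers at 0.5 of the hepatocyte level plus another class were called mixed. The naming rules and the tie limit were set after the clusters were seen. Left out of every class were 82, 172 and 29 mixed and 296, 233 and 459 unnamed cells.

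UMIs were summed per class and library and scaled to CPM with exact 95% Poisson intervals. Ratios carry exact conditional binomial intervals (scipy 1.17.1), shares exact binomial intervals, all for counting error only. The procedure was tested on simulated data. With 1 library per group no test was made.

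Iron genes were grouped in 12 lists by role (114 names, 102 in the matrices). The 5 genes, the lists and the classes were chosen with earlier results of these data known. Named are the 5 genes in every class, per list up to 4 members that met the 1.5-fold rule and up to 2 with the most UMIs, and the 3 genes most correlated with each of the 5. Alternatives were thinning to 1000 UMIs, doublets kept, at least 500 genes and 1000 UMIs per cell, separate clustering, per-cell marker classes, median-of-ratios scaling, subtraction of the T cell-like level, shared clusters, and a minimum of 50 UMIs. Subtracting T cell-like UMIs per cell was added after the data were seen. The value of 1 gene of the lists is not reported here.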

Additional observations from a re-analysis of the deposited data

Results flagged for a closer look

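TF moved in opposite directions in 2 classes that should lack it. In B cell-like cells NASH-T was 2.74-fold (1.06 to 9.03) above NASH, from 31 UMIs in 192 cells and 5 UMIs in 98 cells. In stellate or fibroblast-like cells the ratio of NASH-T to NASH was 0.557 (0.358 to 0.853), from 35 and 65 UMIs. Per cell, TF was at 0.161 and 0.0510 UMIs in B cell-like and at 0.114 and 0.181 in stellate or fibroblast-like cells, against 9.60 and 8.53 in hepatocyte-like cells. The difference between the classes was not tested.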

How the results depend on the processing

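No paired analysis was possible because each group has 1 library, and for the same reason no replicate could be left out. For HAMP, TF and TFRC in hepatocyte-like, SLC40A1 in macrophage-like and BMP6 in endothelial-like cells, the ratios that crossed 1 under an alternative were BMP6 in all 3 comparisons, HAMP and TF in NASH-T over NASH and SLC40A1 in NASH over Con, each short of the 1.5-fold rule in the reported result. In other classes SLC40A1 in hepatocyte-like cells went from 1.06 to 0.870 in NASH-T over Con with the T cell-like CPM subtracted, and TFRC in endothelial-like cells from 1.08 to 0.664 in NASH-T over Con and from 1.24 to 0.809 in NASH over Con with per-cell marker classes. BMP6 in hepatocyte-like and SLC40A1 in endothelial-like cells (NASH over Con) and TFRC in macrophage-like cells (NASH over Con and NASH-T over NASH) also crossed 1, by less than the counting interval. Of 121 alternative values of the main ratios, 89 stayed within the counting interval and 32 moved out of it. The cause was not tested for any of them. With median-of-ratios scaling, HAMP was 2.32 in NASH over Con and 2.15 in NASH-T over Con, TF 1.24, 1.39 and 1.11 (the last for NASH-T over NASH), TFRC 0.757 and 0.761, and SLC40A1 1.12 in NASH-T over Con. With the T cell-like CPM subtracted, HAMP was 1.68 in NASH over Con and 1.18 in NASH-T over NASH, and TF 1.16 and 1.32 against Con. TFRC gave no value there, since T cell-like cells carry more of it than hepatocyte-like cells, and for that reason it was also left out of the subtraction per cell, which was chosen after seeing the data and moved none of its 12 main values. In the clusters every library filled, HAMP was 2.32 in NASH over Con and 0.873 in NASH-T over NASH, and TF 1.34 and 0.961. Thinned to 1000 UMIs, HAMP was 2.11 in NASH-T over Con, TF 1.12 in NASH over Con and 1.17 in NASH-T over NASH, and SLC40A1 1.13 in NASH-T over Con. With per-cell marker classes, TF was 1.12 in NASH over Con, SLC40A1 0.910 in NASH over Con and 1.20 in NASH-T over NASH, and BMP6 1.17 in NASH-T over Con and 1.09 in NASH-T over NASH. With at least 500 genes and 1000 UMIs, SLC40A1 was 0.909 in NASH over Con and 1.18 in NASH-T over NASH. With doublets kept, SLC40A1 was 1.07 in NASH-T over Con. With each library clustered on its own, SLC40A1 was 1.01, 1.16 and 1.14 over the 3 comparisons, and BMP6 in NASH-T over NASH was 5.72. That BMP6 value rests on 74 NASH cells against 1017 of NASH-T, and Con had 0 endothelial-like cells there and gave no value. With the T cell-like level subtracted, the iron lists in hepatocyte-like cells held 6 higher and 7 lower genes in NASH over Con in place of 3 and 4, and 10 lower in NASH-T over Con in place of 4 (2 with median-of-ratios scaling). In NASH-T over NASH they held 8 higher in place of 5 (2 with a minimum of 50 UMIs) and 6 lower in place of 3 (5 with median-of-ratios scaling). In macrophage-like cells the subtraction gave 4 lower in place of 2 in NASH over Con and 3 lower in place of 0 in NASH-T over NASH, where median-of-ratios scaling gave 4 higher in place of 2. In endothelial-like cells NASH over Con had 1 higher in place of 2 (subtraction) and 2 or 1 lower in place of 4 (median-of-ratios, 50 UMIs). NASH-T over Con had 4 or 1 lower in place of 2 (subtraction, 50 UMIs), and NASH-T over NASH 2 higher in place of 4 (50 UMIs) and 1 lower in place of 0 (subtraction).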

Other observations

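CD163, known as the macrophage receptor for haemoglobin bound to haptoglobin, was abundant in hepatocyte-like cells of these goats. It stood at 792, 779 and 1242 CPM there in Con, NASH and NASH-T, and 84.4%, 86.3% and 88.1% of the cells had a UMI. In T cell-like cells 4.03%, 3.76% and 4.43% had one, at 33.9, 34.9 and 40.4 CPM, so the hepatocyte-like share was far above background. NASH-T was higher than Con by 1.57-fold (1.53 to 1.61) and higher than NASH by 1.60-fold (1.56 to 1.63), in hepatocyte-like cells, while macrophage-like cells went from 1034 CPM in Con to 534 in NASH and 646 in NASH-T. The difference between Con and NASH-T thus had opposite signs in the 2 classes, which was not tested. CD163 made up most of the summed macrophage markers in hepatocyte-like cells (898, 872 and 1372 CPM for 12 markers). It was spread evenly over hepatocyte-like clusters, for example 814, 693 and 1252 CPM in cluster 0 and 751, 731 and 1254 CPM in cluster 6. CD163 has close relatives in the scavenger receptor family of ruminants, and whether reads of a relative were counted as CD163 was not tested.

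SCARA5, a ferritin receptor, was a gene of stellate or fibroblast-like cells (62.7, 24.02 and 32.6 CPM from 27, 16 and 21 UMIs). In endothelial-like cells it stood at 2.79, 13.6 and 14.1 CPM from 2, 13 and 28 UMIs, with both HRDS pools above Con. In hepatocyte-like cells it stood at 2.31, 11.2 and 1.38 CPM from 33, 223 and 21 UMIs, 4.85-fold (3.35 to 7.22) higher in NASH than in Con, and NASH-T was at a ratio of 0.123 (0.0749 to 0.193) to NASH. In NASH it was found in cluster 7 (14.9 CPM), cluster 24 (9.75 CPM) and cluster 0 (9.84 CPM), and in cluster 6 it stood at 2.63 CPM from 4 UMIs. In cluster 0, which every library filled, Con had 2.84 and NASH-T 0.704 CPM.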
